A study of Arabidopsis thaliana with 12 samples.

Results

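The subject is a set of 6 nuclear genes of Arabidopsis thaliana that encode proteins of the plastid ribosome, chosen by name: each had an array probe whose annotation names that gene and no other. They are 6 of 691 genes with a probe of their own in a table of 3439 probes. 4 encode proteins of the large subunit, RPL5 (AT4G01310), RPL17 (AT3G54210), RPL29 (AT5G65220) and RPL34 (AT1G29070), and 2 proteins of the small subunit, RPS6 (AT1G64510) and RPS10 (AT3G13120). RNA came from wild-type plants of the Landsberg ecotype, 6 samples kept in blue light of 20 µE and 6 kept at 200 µE, each for 48 h. The unit µE is the usual shorthand for a photon flux. All 12 samples share genotype, ecotype and light colour, and age, tissue and the number of plants pooled are not given in the labels. The question was how transcript levels of these genes differ between bright and dim blue light.

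Chloroplasts hold ribosomes of bacterial descent, which make the plastid-encoded proteins of the photosystems and of the large subunit of Rubisco. Some of the ribosome's proteins are encoded in the plastid genome itself. The rest, all genes described here among them, are encoded in the nucleus, made in the cytosol and imported into the chloroplast, so that building a ribosome needs transcripts of both genomes. The array values here bear on the nuclear transcripts alone.

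Each sample is a column of deposited intensities in arbitrary units, numbered 1 to 6 in either group. In both groups, columns deviated from the group mean in couples (1 with 2, 3 with 4, 5 with 6). Each couple was also averaged and counted once, and means ± SD below are over 3 couple means. Median intensity was lower at 200 µE (0.171 to 0.218 units per column) than at 20 µE (0.401 to 0.574), and more values were listed at 0 (16.5 to 18.3% against 12.4 to 14.3% of a column). Changes are therefore given both in deposited units and after quantile normalisation, which gives every column the same distribution of values. The median log2 change over the 1445 tested features was -1.30 as deposited, 0.07 after centring columns on their medians and -0.07 after quantile normalisation. Of 11 markers of green tissue, 5 had a probe of their own and all 5 were above 0 in every column, between 0.491 units (PRK) and 81.7 units (PSBW). None of 9 markers of root, seed or senescence was measured alone, so that a share of such tissue was not tested. In bulk RNA, fewer cells of a type and less RNA per cell cannot be told apart.

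Of the 6 transcripts, 4 were above 0 in every column: RPL5, RPL17, RPL29 and RPS10. RPL29 was the one measured higher in bright light in deposited units, at 3.94 ± 0.139 units against 1.91 ± 0.608 (SD, n = 3 couple means). RPL5, RPL17 and RPS10 had lower deposited means at 200 µE, and RPL34 went from values above 0 in 4 columns to a listing of 0 in all 6. RPS6 was listed at 0 in 11 of 12 columns. After quantile normalisation, over 12 columns, 3 of the 6 were higher at 200 µE (RPL17, RPL29 and RPS10), 1 was lower (RPL34) and 2 did not pass (limma, adjusted p under 0.05). Over all features 25.5% passed as higher and 29.4% as lower, so that passing, in either direction, was common in this table and says nothing particular about these genes. As deposited 1 member passed as higher (RPL29), against 7.75% of all features, and 4 as lower (RPL5, RPL34, RPS6 and RPS10), against 65.5%. RPS6 is among the latter only because the floor set for zeros was lower at 200 µE. Over quantile-normalised couple means none of the 6 passed (limma, adjusted p under 0.05), against 27.5% of all features. Under other scalings some members passed over couple means, RPL29 among them each time, as given below. Since passing over couple means depended on the scaling, no member is called risen or fallen here. At an unadjusted p under 0.05 over quantile-normalised couple means (limma), RPL29 and RPS10 passed, 2 of 6, against 42.3% of all features.

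**Figure D1:**
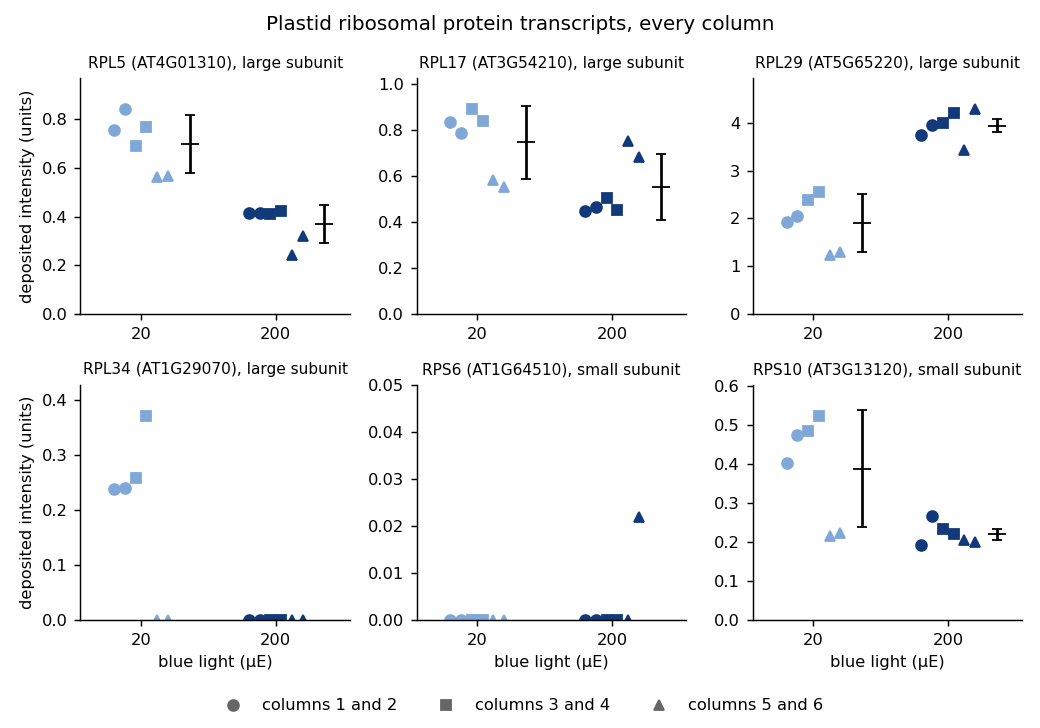
Deposited intensity (units) of the 6 transcripts in every column at 20 and 200 µE; symbols mark couples of columns, and bars give the mean ± SD of 3 couple means where no column is listed at 0. RPL29 lies at 3.44 units or above in all columns at 200 µE and at 2.55 or below at 20 µE, whereas RPL5 lies lower in all columns at 200 µE.

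RPL29 belongs to a family of proteins that in bacteria sits beside the mouth of the tunnel through which the growing protein leaves the large subunit. Its transcript measured 1.24 units in the lowest, 1.99 in the median and 2.55 in the highest column at 20 µE. At 200 µE these values were 3.44, 3.98 and 4.28 units. The groups did not overlap, every column in bright light lying above every column in dim light, as was true of 5.26% of all features in deposited units. The change was 1.09 ± 0.20 (SE) on the log2 scale as deposited, 0.87 ± 0.17 after quantile normalisation and 2.46 ± 0.15 after median centring, all over 12 columns (limma, adjusted p = 0.00030, 0.0012 and 3.7e-08). RPL29 was thus higher under each scaling. Relative to the median change of all features the difference was 2.39 as deposited and 0.94 after quantile normalisation, and 4.50% and 21.5% of features had a larger change. Over couple means the quantile-normalised change missed the threshold (adjusted p = 0.060, and 0.089 with the replicate block). Couple means passed as deposited (0.026), after median centring (0.00079) and with the floor set after scaling (0.049). Over the 12 columns with the couple as a random block the quantile-normalised change passed as well (0.011).

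The spread of RPL29 lay mainly in dim light. At 20 µE the couple means were 1.99, 2.47 and 1.27 units, a 1.95-fold range, while at 200 µE they were 3.85, 4.10 and 3.86 units, a 1.06-fold range. Columns 5 and 6, which hold the lowest values at 20 µE, gave the largest fold, at 3.04, against 1.93 in columns 1 and 2 and 1.66 in columns 3 and 4. RPL29 was therefore higher in bright light within each of the 3 couples. With columns 5 and 6 left out in both groups the quantile-normalised change was 0.57, with columns 3 and 4 left out it was 1.12. It passed over the remaining columns whichever of the 3 couples was left out (adjusted p of at most 0.024).

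RPL5 is the large subunit protein whose bacterial counterpart holds the smallest ribosomal RNA in place at the top of the subunit. It measured 0.563 units in the lowest, 0.722 in the median and 0.841 in the highest column at 20 µE. At 200 µE these values were 0.240, 0.412 and 0.424 units. In deposited units all columns in bright light lay below all columns in dim light, but so did 47.0% of all features. The fold change in couples was 0.520, 0.572 and 0.489, close to the median fold of all features in the same columns, which was 0.483, 0.445 and 0.507. After quantile normalisation the change was 0.13 ± 0.11 and did not pass (limma, adjusted p = 0.32). It was -0.93 as deposited (adjusted p = 0.00060, and 0.040 over couple means) and 0.44 after median centring (0.013, and 0.19 over couple means), so that no direction is given for RPL5.

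RPL17, whose bacterial counterpart is another protein of the region around the exit tunnel, was the member whose deposited change took opposite signs in different couples. It measured 0.551, 0.811 and 0.892 units (lowest, median and highest column) at 20 µE and 0.449, 0.487 and 0.752 units at 200 µE. The groups overlapped, because columns 5 and 6 were the lowest at 20 µE and the highest at 200 µE. The fold was 0.565 in columns 1 and 2, 0.554 in columns 3 and 4 and 1.27 in columns 5 and 6. After quantile normalisation the change was 0.46 ± 0.16 over 12 columns (limma, adjusted p = 0.027), but the call was lost with the replicate number as a block (0.052), over couple means (0.21) and without column 6 at 200 µE (0.054). With columns 5 and 6 left out in both groups the change was 0.19 (adjusted p = 0.068), and with columns 3 and 4 left out it was 0.58 (0.067). Over all 12 columns it was 0.92 after median centring (0.0021, and 0.058 over couple means). As deposited it was -0.45 (0.057), which lay 0.85 above the median change of all features. Since the sign differed between scalings, no direction is given for RPL17.

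**Figure D2:**
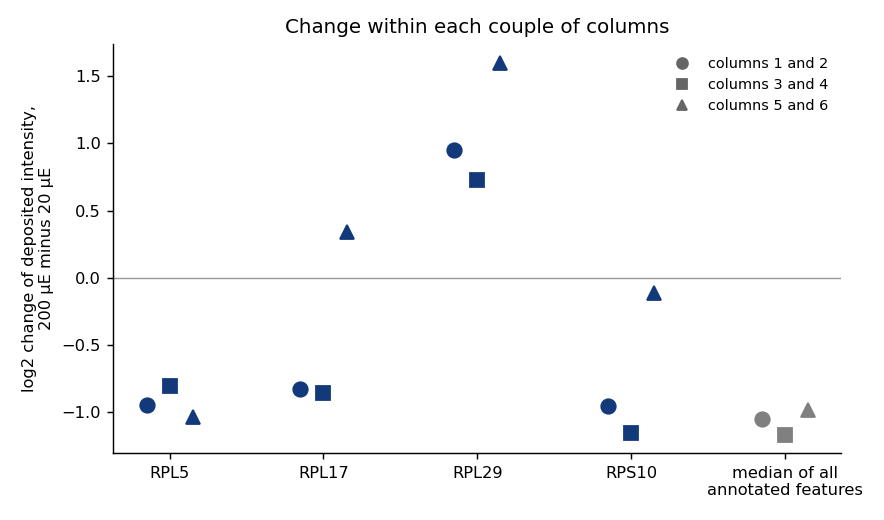
Log2 change of deposited intensity from 20 to 200 µE within each couple of columns (symbols) for the 4 transcripts above 0 throughout, beside the median of all annotated features in the same columns. RPL5 stays near that median in all couples, RPL29 lies above it in all, and RPL17 and RPS10 depart from it most in columns 5 and 6.

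RPS10 is a protein of the head of the small subunit, and its Escherichia coli counterpart also takes part in transcription antitermination. Its transcript measured 0.217 units in the lowest, 0.440 in the median and 0.525 in the highest column at 20 µE. At 200 µE these values were 0.192, 0.214 and 0.268 units. The groups overlapped through columns 5 and 6 at 20 µE, which lay at the level of bright light. The fold was 0.518 and 0.449 in the first 2 couples and 0.923 in columns 5 and 6. The change was -0.74 ± 0.25 as deposited (limma, adjusted p = 0.016) and 0.71 ± 0.18 after quantile normalisation (0.0071), past the threshold in opposite directions. After median centring it was 0.63 ± 0.17 (0.0060), again higher at 200 µE. The change as deposited lay 0.56 above the median change of all features. With columns 5 and 6 left out in both groups the quantile-normalised change was 0.41 (0.022). Over couple means it passed under none of these scalings (0.13 as deposited, 0.11 after quantile normalisation and 0.11 after median centring). No direction is given for RPS10.

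RPL34, a very small protein that in bacteria lies buried among the ribosomal RNA of the large subunit, was listed at 0.239, 0.240, 0.259 and 0.372 units in columns 1 to 4 at 20 µE. Columns 5 and 6 at 20 µE and all 6 columns at 200 µE held a 0. The 1st percentile of the values above 0, taken over all probes, was lower at 200 µE (0.0040 to 0.0087 units) than at 20 µE (0.019 to 0.047). At 20 µE it was lowest in columns 5 and 6 (0.023 and 0.019), which list RPL34 at 0. It is not a limit of detection for this probe, and why the zeros are listed was not tested. No fold is given against zeros. RPL34 passed as lower over 12 columns (limma, adjusted p = 0.015). It did not pass when either the first or the second couple was left out in both groups (0.17 each). Over couple means it did not pass after quantile normalisation (0.14) or with the floor set after scaling (0.16). It passed over couple means as deposited (0.0074) and after median centring (0.023), where zeros took each column's own floor. RPS6, which in bacteria binds at the platform of the small subunit, had 0.022 units in column 6 at 200 µE and a listed 0 in the 5 others there and in all at 20 µE. It did not pass (adjusted p = 0.40). A listed 0 is a floor of unknown origin and does not show that a transcript was absent.

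All 5 transcripts with values above 0 at 20 µE were lowest in columns 5 and 6 there. The mean of that couple was 0.741 times the mean of the other two for RPL5, 0.676 times for RPL17, 0.567 times for RPL29 and 0.466 times for RPS10. The column median over all probes was 0.729 times that of the others. RPL5 thus moved with the column median, while RPL29 and RPS10 lay further down. At 200 µE the same ratio was 1.53 for RPL17, 0.672 for RPL5, 0.972 for RPL29 and 0.890 for RPS10, against 0.823 for the column median. What columns 5 and 6 have in common is not in the labels, and its part in these values was not tested.

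The place of a transcript among all probes of its column does not depend on how the column was scaled. RPL29 lay at percentile 88.4 to 95.3 at 20 µE and at 96.5 to 97.1 at 200 µE. RPS10 lay at percentile 30.3 to 46.9 at 20 µE and at 47.1 to 55.7 at 200 µE. RPL17 lay at percentile 62.8 to 68.4 and then at 69.2 to 83.9. For these 3 the groups did not overlap in percentile, as was the case, as higher, for 16.8% of all features after quantile normalisation. RPL5 lay at percentile 58.0 to 67.5 and at 58.5 to 69.0, and the groups overlapped. These places describe probes and not amounts of RNA, since probes differ in brightness for the same amount of transcript, and no order of transcript levels between the genes is read from them.

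**Figure D3:**
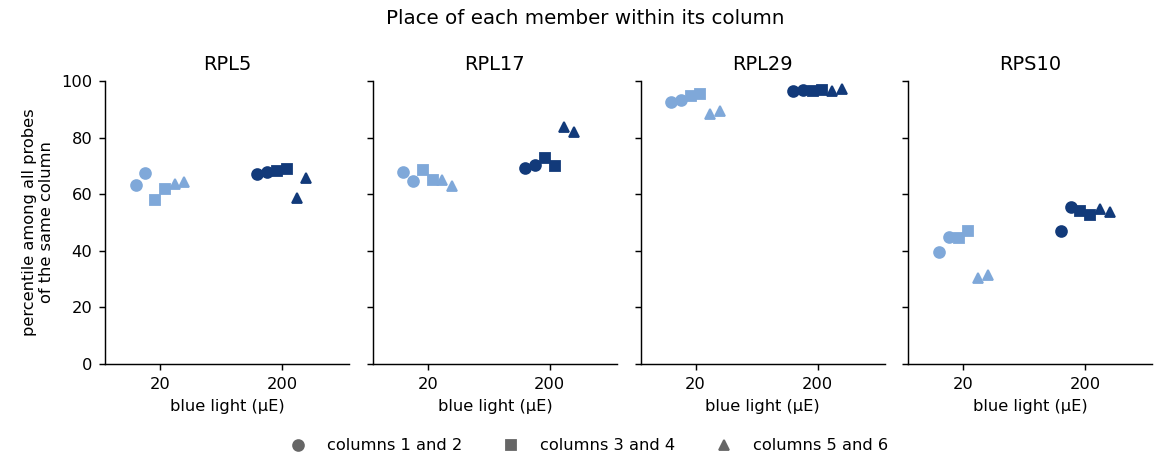
Percentile of each transcript's intensity among all 3439 probes of the same column at 20 and 200 µE; symbols mark couples of columns. RPL29, RPL17 and RPS10 hold higher places in every column at 200 µE, while the places of RPL5 overlap.

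A ratio of 2 transcripts within a column is free of a factor that multiplies the whole column, but not of an offset or of quantile normalisation. It was taken in deposited units for the 6 pairs among the 4 transcripts above 0 throughout. RPL29 over RPL5 was 2.20 to 3.47 at 20 µE and 9.05 to 14.3 at 200 µE, a 4.06-fold higher ratio in bright light. RPL29 over RPS10 went from 4.31 to 5.77 in dim light to 14.8 to 21.3 in bright light (3.57-fold), and RPL29 over RPL17 from 2.12 to 3.04 to 4.58 to 9.28 (2.91-fold). In these 3 pairs no column at 200 µE overlapped with any at 20 µE, whereas the groups overlapped in all 3 pairs without RPL29. The 3 ratios share RPL29 as numerator, whose own deposited values did not overlap, so they are not separate observations. How often ratios of other genes do not overlap was not computed. RPL17 over RPS10 was 1.60 to 2.69 in dim light and 1.74 to 3.65 in bright light. RPL5 over RPS10 was 1.42 to 2.60 and then 1.16 to 2.15. RPL5 over RPL17 was 0.773 to 1.07 and then 0.319 to 0.937, with columns 5 and 6 at 200 µE the lowest.

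The ratios take deposited intensity as linear over the whole range, and RPL29 is the brightest of the 4. After quantile normalisation the difference between RPL29 and RPS10 was 3.17 at 20 µE and 3.33 at 200 µE on the log2 scale, a change of 0.17 against 1.83 as deposited, and the groups overlapped. For RPL29 and RPL5 the normalised change was 0.74 against 2.02, and for RPL29 and RPL17 it was 0.41 against 1.54, again with overlap. The size of the difference between RPL29 and the other members therefore depended on whether columns were made alike in distribution, although its direction did not. No p-value is given for these ratios.

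**Figure D4:**
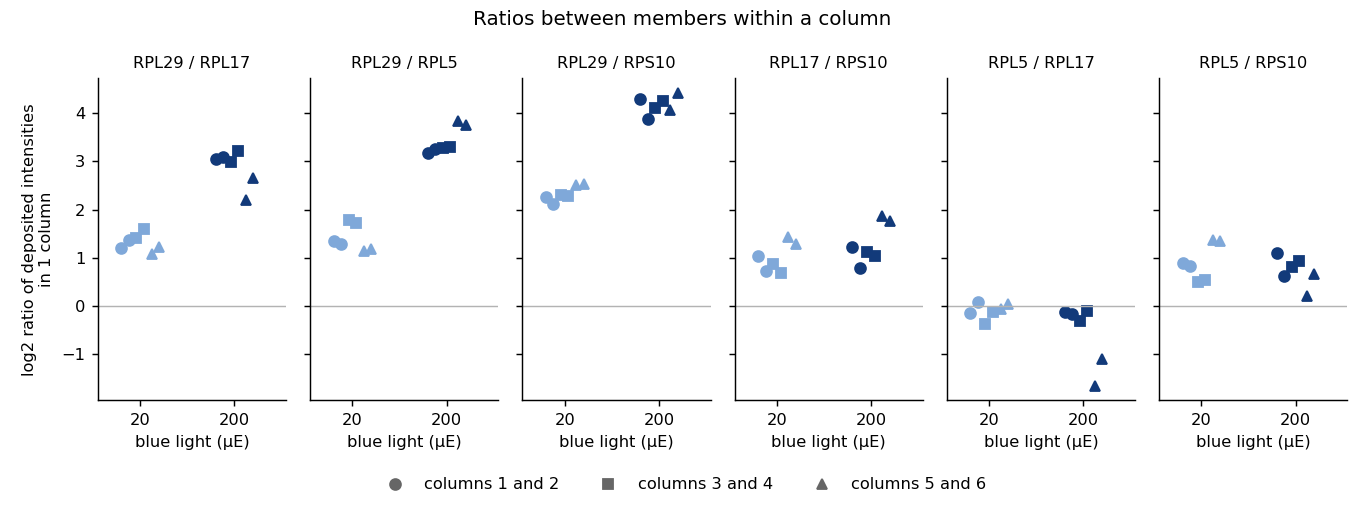
Log2 ratio of the deposited intensities of 2 transcripts within each column at 20 and 200 µE, for the 6 pairs among RPL5, RPL17, RPL29 and RPS10; symbols mark couples of columns. The 3 ratios with RPL29 as numerator are higher in all columns at 200 µE, and the other 3 overlap between the groups.

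Among the 4 transcripts above 0 throughout, the change of RPS10 lay within the range of the large subunit members. After quantile normalisation the large subunit members RPL5, RPL17 and RPL29 changed by 0.13, 0.46 and 0.87, and the small subunit member RPS10 by 0.71, within that range. As deposited the changes were -0.93, -0.45 and 1.09 for the large subunit and -0.74 for RPS10, again within the range. With 1 small subunit transcript measurable throughout, the subunits as such were not compared. The median change of all 6 members was 0.42 after quantile normalisation (range -2.15 to 0.87), against -0.07 for all features, and -0.83 as deposited (range -4.32 to 1.09), against -1.30. Both medians include RPL34 and RPS6, whose changes rest on the floor set for zeros.

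**Figure D5:**
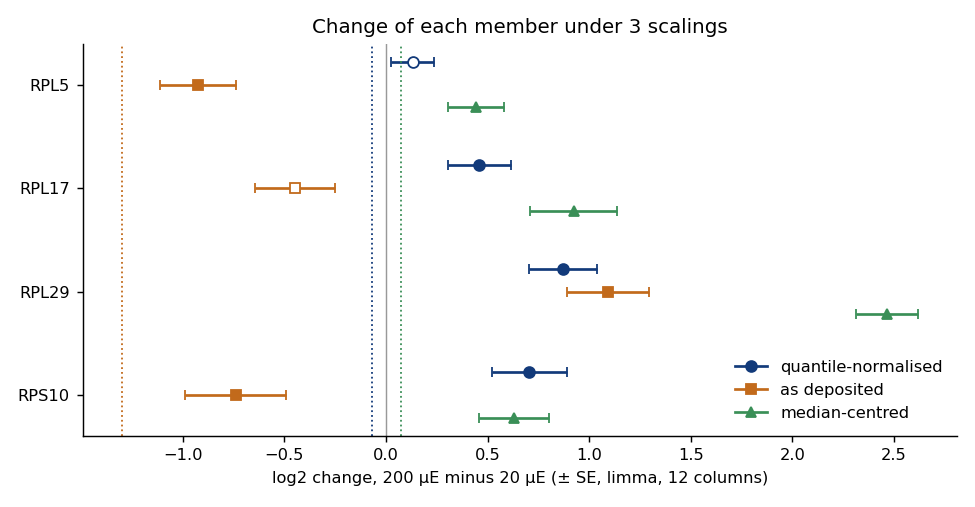
Log2 change from 20 to 200 µE (± SE, limma over 12 columns) of the 4 transcripts above 0 throughout under 3 scalings; filled symbols passed an adjusted p of 0.05, and dotted lines give the median change of all tested features under the scaling of the same colour. RPL29 is higher under all 3 scalings, while RPL5, RPL17 and RPS10 lie on opposite sides of 0 as deposited and after normalisation.

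Across the 12 columns, after quantile normalisation, RPL29 and RPS10 varied together most closely of the 6 pairs (Pearson's r = 0.96, and 0.91 for deviations from the group means). RPL17 correlated with RPL29 at 0.67 and with RPS10 at 0.64, but its deviations from the group means did so at 0.21 and 0.24. RPL5 correlated with RPL29 at 0.24, with RPS10 at 0.21 and with RPL17 at -0.20, and its deviations from the group means at -0.24, -0.19 and -0.73. These values describe columns that share couples and a difference between groups, and carry no test.

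Among 557 other genes with a probe of their own and at least 9 columns above the floor, the one most like RPL29 across the 12 columns was AT5G44000 (Pearson's r = 0.98, and 0.93 for deviations from the group means). In deposited units AT5G44000 overlapped between the groups, at 0.174 to 0.408 units in dim and 0.179 to 0.271 units in bright light, unlike RPL29. The genes most like RPS10, RPL17 and RPL5 were AT4G03150 (0.95), AT1G79480 (0.90) and AT1G31790 (0.83). RPL34 and RPS6 had too few columns above the floor for such a search.

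Beyond these 6, the nuclear genes for plastid ribosomal proteins could not be followed. Of 41 such genes listed, 27 of the large and 14 of the small subunit, 4 and 2 had a probe of their own, and no probe shared by several genes named any of the 41. None of 7 plastid translation factors had a probe of its own, although 4 shared probes named one. Of 44 further genes whose reference name holds the words ribosomal protein, none was measured alone.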

How the data were processed

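Intensities of 12 samples were taken from the deposited value table. They are linear intensity in arbitrary units as deposited by the authors, with zeros and no negative values; the sources used here give neither array chemistry nor background correction nor scaling. The highest value was 99.999999999 units in every column at 200 µE and in columns 3, 5 and 6 at 20 µE. What set this value is not stated, and no member reached it. Groups and replicate numbers come from sample titles. Probes were named through the platform annotation, and their identifiers were looked up among the genes of assembly TAIR10.1; the 6 members matched. Of 3439 probes, 692 named 1 gene, 870 several and 1877 were not listed.

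Values under the 1st percentile of a column's positive values, zeros included, were set to it, and the resulting log2 values of all probes were quantile-normalised. The 1445 annotated features above 0 in at least 1 column were fitted with limma 3.58.1 (R 4.3.3) as 200 µE minus 20 µE, two-sided, without a block, with Benjamini-Hochberg adjustment over all of them and a threshold of 0.05. The 116 features at 0 throughout were left out. The fit was also run on simulated data with added changes, independent columns and the same spread for all probes. That simulation held no couples and no shift of whole columns between groups, so it does not check the p-values given here. Same-numbered columns of the groups deviated together (correlations 0.17 to 0.55 for the 6 pairs, all above 0.1). A fit with the replicate number as a block was therefore run as an alternative. Different numbers were not compared across the groups, so pairing by number and by couple cannot be told apart. Neighbouring columns of a group also deviated together (0.26 to 0.82 within couples, at most 0.16 between), and no pair of columns was identical. Labels do not say that samples came from separate plants, so p-values over 12 columns measure a spread that may be technical, and a fit on couple means was run beside it. Members are named by gene; for each, the most correlated gene is named.

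The members, lists and settings were chosen with earlier results of these data known. Alternatives were other scalings, a pseudocount of 0.0583, other feature sets, blocks and leaving out columns; a floor set after scaling, and couple means under other scalings, were added after seeing the data. The number of arrays limits the precision. Roles of genes are background knowledge. Sequences were not used here.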

Additional observations from a re-analysis of the deposited data

Results flagged for a closer look

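In 3 of 9 sets of 6 values a column lay apart from the rest. For independent values chance gives about 1 in 20, or 0.45 sets. Columns here deviated in couples and some members varied together, so the 2 counts are not strictly comparable. All values are on the quantile-normalised log2 scale and all 3 sets are at 200 µE. RPL5 measured -1.29 in column 5 against -0.97 to -0.81 in the others. RPL29 measured 1.96 in column 6 against 1.72 to 1.80, on the side away from the 20 µE columns. RPS10 measured -1.83 in column 1 against -1.55 to -1.42, next to the highest column at 20 µE (-1.84).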

How the results depend on the processing

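Of the 6 members, 3 passed as higher and 1 as lower over 12 columns after quantile normalisation (limma), against 25.5% and 29.4% of all features. As deposited the counts were 1 and 4, against 7.75% and 65.5%. Over couple means as deposited they were 1 and 3, against 4.71% and 53.8%. Over quantile-normalised couple means they were 0 and 0 (limma), against 12.9% and 14.5%. There 2 members were at an unadjusted p under 0.05, against 42.3% of all features. With the replicate block on couple means the counts were again 0 and 0 (limma), against 12.2% and 15% of all features. In that fit 1 member was at an unadjusted p under 0.05. With the couple as a random block 1 passed as higher and 1 as lower, against 15.7% and 17%. Over median-centred couple means the counts were also 1 and 1, against 25.3% and 22.8%. Over couple means with the floor set after scaling they were 1 and 0, against 14.4% and 15%. Without dim features 0 passed as lower, since RPL34 was not tested there. Leaving out 1 column gave 2 to 3 higher and 1 lower throughout; leaving out a couple of both groups gave 2 to 3 higher and 0 to 1 lower, the 0 arising without columns 1 and 2 or 3 and 4. The replicate block over 12 columns ended the call of RPL17 and no other member's. As deposited the changes of RPL5, RPL17 and RPS10 reversed to -0.93, -0.45 and -0.74, with the same values over couple means. RPS6 reversed to -2.003 as deposited and -0.63 after median centring, where its values are almost all the floor. Of all features 794 passed, against 1703 when all 3174 probes above 0 were tested, 472 with the couple as a random block, 397 over couple means, 393 with the replicate block on these and 425 over couple means with the floor set after scaling. Leaving out 1 column gave 740 to 821, and leaving out a couple 590 to 882. The cause of these differences was not tested.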
